A study of Mus musculus with 4 samples.

Results

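The mitochondrial ribosomal proteins examined here are the nuclear genes whose symbols begin with Mrpl or Mrps followed by a digit. Of the 13825 genes in the deposited count table, 82 carried such a symbol. Of these, 78 were coding genes (49 Mrpl and 29 Mrps) and 4 were pseudogenes by name (Mrpl48-ps, Mrpl23-ps1, Mrps36-ps1 and Mrps36-ps2). Tibialis anterior (TA) muscle, a fast muscle of the lower hind leg, was sequenced from WT mice after sham surgery (WS) or denervation (WD) and from Fgf21KO mice after sham surgery (KS) or denervation (KD). All 4 groups were adult male mice, and muscles were taken 14 days after surgery on the sciatic nerve. WT mice were C57BL/6J, and Fgf21KO is a global deletion, so cells outside muscle lack the gene as well. Each group is 1 library made from 4 pooled muscles, so no value below has an error between animals. The sample labels give a 2 mm piece of nerve removed with the right leg left innervated, whereas the paper's methods describe a longer segment and an operated contralateral control. If the opposite leg was the control, the sham and denervated pools of a genotype hold muscles of the same mice, and the sources used here do not say which mice went into each pool. Counts of Fgf21 itself were not analysed here, which leaves the knockout labels without that check.

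Mitochondria carry their own small genome, which encodes a handful of respiratory chain subunits and both ribosomal RNAs of an organelle-specific ribosome. The mitoribosome translates only those subunits, and every one of its proteins is made in the cytosol from nuclear genes and imported. Part of this protein set descends from bacterial ribosomal proteins, and part was gained in the mitochondrial lineage. Skeletal muscle needs the mitoribosome to build respiratory chain complexes I, III, IV and V, whose output feeds contraction.

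Total counts ran from 25249879 (WS) to 34141303 (KS), and 3 counts correspond to between 0.0919 (WD) and 0.129 (WS) CPM (counts per unit of library size) after edgeR's TMM scaling, which sets the libraries so that most genes are level. The 13 mitochondrially encoded genes took 27.0% and 30.4% of counts in the sham libraries and 19.4% and 20.6% in the denervated ones, so values are also given under other scalings where these change a direction or a call. With library totals in place of TMM, the median of all genes moved up by 0.29 (WD vs WS) and 0.36 (KD vs KS) on the log2 scale. Of 7 muscle fibre markers, Myh1 and Mylpf were in the table, at a summed 33825, 20920, 31681 and 23088 CPM in WS, WD, KS and KD, and Acta1, Ckm, Myh4, Tnnt3 and Actn3 were not analysed here. Macrophage markers (8 in the table, of which 7 rose) summed to 31.7 and 34.8 CPM in sham and 71.4 and 70.7 CPM in denervated libraries, while the 5 endothelial markers, all of which fell, summed to 415 and 335 CPM in sham and 194 and 184 CPM in denervated ones. Of 6 fibro-adipogenic markers 4 fell, and all 4 erythrocyte markers fell. In pooled whole muscle, fewer cells of a type and less RNA per cell cannot be told apart, and the part of these cell types in the members' changes was not tested.

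All 82 members passed the filter of a mean count of at least 10. Counts of coding members ran from 277 (Mrps6 in WS) to 7724 (Mrpl42 in KS), well above the floor of 3 counts, while Mrpl48-ps had 11 to 15. Per kilobase of principal transcript, averaged over the 4 libraries, the median coding member stood at 30.9 CPM per kb against 5.73 over the 11707 tested genes with a known length. Mrpl42, a large-subunit protein without a bacterial counterpart, had the highest level at 288 CPM per kb. Mrps21 (163 CPM per kb, a small-subunit protein) and Mrpl33 (118 CPM per kb, a large-subunit protein) followed. The lowest levels per length were those of Mrpl47 at 4.76, Mrpl19 at 5.34 and Mrps35 at 5.86 CPM per kb. The highest and lowest members were 60.6-fold apart on this scale. Principal transcripts ran from 418 to 7300 bases, and these 3 low members have long annotated transcripts (3364, 5000 and 4162 bases), so their level per length depends on the transcript model chosen. Exons of 26 coding members overlap another annotated gene, 22 of them on the opposite strand (Mrpl18 with Tcp1, Mrpl24 with Rrnad1, Mrps30 with B430218F22Rik), while Mrps18c overlaps Gm43511 on the same strand. Whether counting used the strand is not given in the sources used here, so reads at these overlaps may be shared.

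RefSeq windows of 300 bases (250 before and 50 after the annotated start, build GRCm38.p6) matched 69 of the 82 members by symbol. Motifs were searched as exact letters on both strands: CCGGAAG for ETS factors, AAGATGGCG for YY1, the palindromic core motif for NRF1 and GGGCGG for Sp/KLF factors. NRF1 and the ETS factor GABP (NRF2) are known activators of nuclear genes for mitochondrial proteins, and YY1 has a similar known role in muscle. A gene with several windows was counted once, as holding a motif if any of its windows did. The ETS letters were found for 26 of 69 members (37.7%), against 9.93% of all 27025 genes with a window and 20.5% of the 9744 tested here. The YY1 letters were in 8 (11.6%), against 1.64% and 3.65%. Those of NRF1 were in 3 (4.35%), against 1.07% and 2.37%, and those of Sp/KLF in 34 (49.3%), against 38.2% and 69%. These shares describe letters in the windows, not bound sites.

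The stretch around the YY1 letters is shown for all 8 members that hold it, so that the letters and their place can be compared between members. Sequences run 5′ to 3′ on the gene's strand with the YY1 letters in capitals, read as CGCCATCTT where the motif lies on the opposite strand.
Mrpl35: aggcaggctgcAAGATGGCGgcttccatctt
Mrpl36: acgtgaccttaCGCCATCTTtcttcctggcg
Mrpl37: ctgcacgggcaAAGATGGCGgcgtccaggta
Mrpl42: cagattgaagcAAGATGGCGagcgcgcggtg
Mrps11: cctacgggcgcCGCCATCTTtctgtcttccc
Mrps18a: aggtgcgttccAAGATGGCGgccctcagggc
Mrps24: cgcgccggcccAAGATGGCGtggtc
Mrps27: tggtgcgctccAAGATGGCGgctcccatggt
The regions (GRCm38.p6) are chr6:71823742-71823772 for Mrpl35, chr13:73330967-73330997 for Mrpl36, chr4:107066821-107066851 for Mrpl37, chr10:95501903-95501933 for Mrpl42, chr7:78783012-78783042 for Mrps11, chr17:46111004-46111034 for Mrps18a, chr11:5707652-5707676 for Mrps24, chr13:99344789-99344819 for Mrps27. In 6 of the 8 the letters lay after the annotated start, on the gene's own strand, beginning 12 (Mrps18a), 15 (Mrps27), 24 (Mrpl35), 27 (Mrpl37), 28 (Mrpl42) and 37 (Mrps24) bases from it. In Mrpl36 and Mrps11 they lay before it, on the opposite strand, at -31 and -108.

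The whole windows of the 2 coding members that fell most and the 2 that rose most after denervation are shown next, with ETS, YY1 and NRF1 letters in capitals. Mrpl42 (chr10:95501900-95502199, minus strand) and Mrps24 (chr11:5707652-5707951, minus strand) fell, and Mrps18c (chr5:100798509-100798808, plus strand) and Mrpl40 (chr16:18876588-18876887, minus strand) rose.
Mrpl42: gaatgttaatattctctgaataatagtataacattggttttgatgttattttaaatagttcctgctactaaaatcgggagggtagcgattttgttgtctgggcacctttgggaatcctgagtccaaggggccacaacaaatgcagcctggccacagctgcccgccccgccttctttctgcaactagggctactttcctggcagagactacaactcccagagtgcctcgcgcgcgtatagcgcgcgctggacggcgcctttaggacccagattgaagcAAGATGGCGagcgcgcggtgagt
Mrps24: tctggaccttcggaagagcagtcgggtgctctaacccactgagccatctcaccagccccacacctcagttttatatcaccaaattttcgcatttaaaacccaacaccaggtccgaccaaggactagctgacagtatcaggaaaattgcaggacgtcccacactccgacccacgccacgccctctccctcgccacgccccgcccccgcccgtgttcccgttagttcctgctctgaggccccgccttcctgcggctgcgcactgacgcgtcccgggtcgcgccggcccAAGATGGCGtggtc
Mrps18c: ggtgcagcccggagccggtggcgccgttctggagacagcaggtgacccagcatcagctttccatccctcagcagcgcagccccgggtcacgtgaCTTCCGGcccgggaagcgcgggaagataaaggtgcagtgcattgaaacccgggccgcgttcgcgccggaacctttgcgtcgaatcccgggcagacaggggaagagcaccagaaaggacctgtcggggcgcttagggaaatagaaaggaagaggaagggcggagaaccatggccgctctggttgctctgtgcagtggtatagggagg
Mrpl40: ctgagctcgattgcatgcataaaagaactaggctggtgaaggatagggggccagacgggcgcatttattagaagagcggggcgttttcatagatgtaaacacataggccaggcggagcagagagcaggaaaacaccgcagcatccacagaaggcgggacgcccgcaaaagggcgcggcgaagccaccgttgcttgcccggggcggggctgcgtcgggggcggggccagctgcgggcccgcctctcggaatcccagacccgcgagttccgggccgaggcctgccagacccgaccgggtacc
Mrpl42 and Mrps24 each hold YY1 letters just after the start. So do Mrpl35, Mrpl37, Mrps18a and Mrps27, whose changes of -0.03, 0.02, -0.02 and -0.01 were not called. The coding members that fell next most, Mrpl18 and Mrpl34, hold ETS letters and no YY1 letters. Mrps18c holds ETS letters 156 bases before the start, and the Mrpl40 window holds none of the ETS, YY1 or NRF1 letters.

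Denervation left the mitoribosomal genes as a group near their sham level on the TMM scale while individual members moved apart. Of the 82 members, 15 rose (26.6% of all 13084 genes tested rose), 19 fell (27% of all genes fell) and 48 did not pass the test, both smaller shares of the members than of all genes. The test was edgeR's quasi-likelihood test with genotype and surgery as additive terms over all 4 libraries, with Benjamini-Hochberg adjusted p below 0.05. Mrpl42 fell by 0.83 on the log2 scale (SE 0.072, adjusted p = 7.15e-11), the largest change among the 34 members called, and Mrps18c, a small-subunit protein of the bacterial S18 family, rose by 0.58 (SE 0.103, adjusted p = 2.43e-05). The median change of the 78 coding members was 0.01, as over all genes (0.01). The SD across the 82 members was 0.296 against 0.776 across all genes, which were not matched to the members for level or count. Under library totals the same counts became 53 higher (46.7% of all genes) and 3 lower (12.8%), because the whole distribution shifts: all 15 members that rose stayed called, whereas 16 of the 19 that fell stayed below 0 and only Mrpl42, Mrps24 and Mrpl18 stayed called. DESeq2's Wald test called 7 of the 15 and 16 of the 19 at an adjusted p below 0.05, and the calls it did not make were those of Mrpl32, Mrpl33, Mrpl41, Mrpl43, Mrpl44, Mrpl49, Mrpl54 and Mrps17 among the higher members and Mrpl38, Mrpl47 and Mrps15 among the lower ones. In simulated data for this comparison, genes changed 1.3-fold were recovered in 45% of cases and genes changed 2-fold in 100%. Only 100 genes were changed at each size, far fewer than were called here. The changed genes had mean counts of at least 100, and all genes shared a single dispersion. These shares therefore do not measure how many true changes were found here, and a member that was not called may still have moved. With 1 residual degree of freedom, which is the difference in response between genotypes, the p-values treat WT and Fgf21KO as replicates of denervation.

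**Figure D1:**
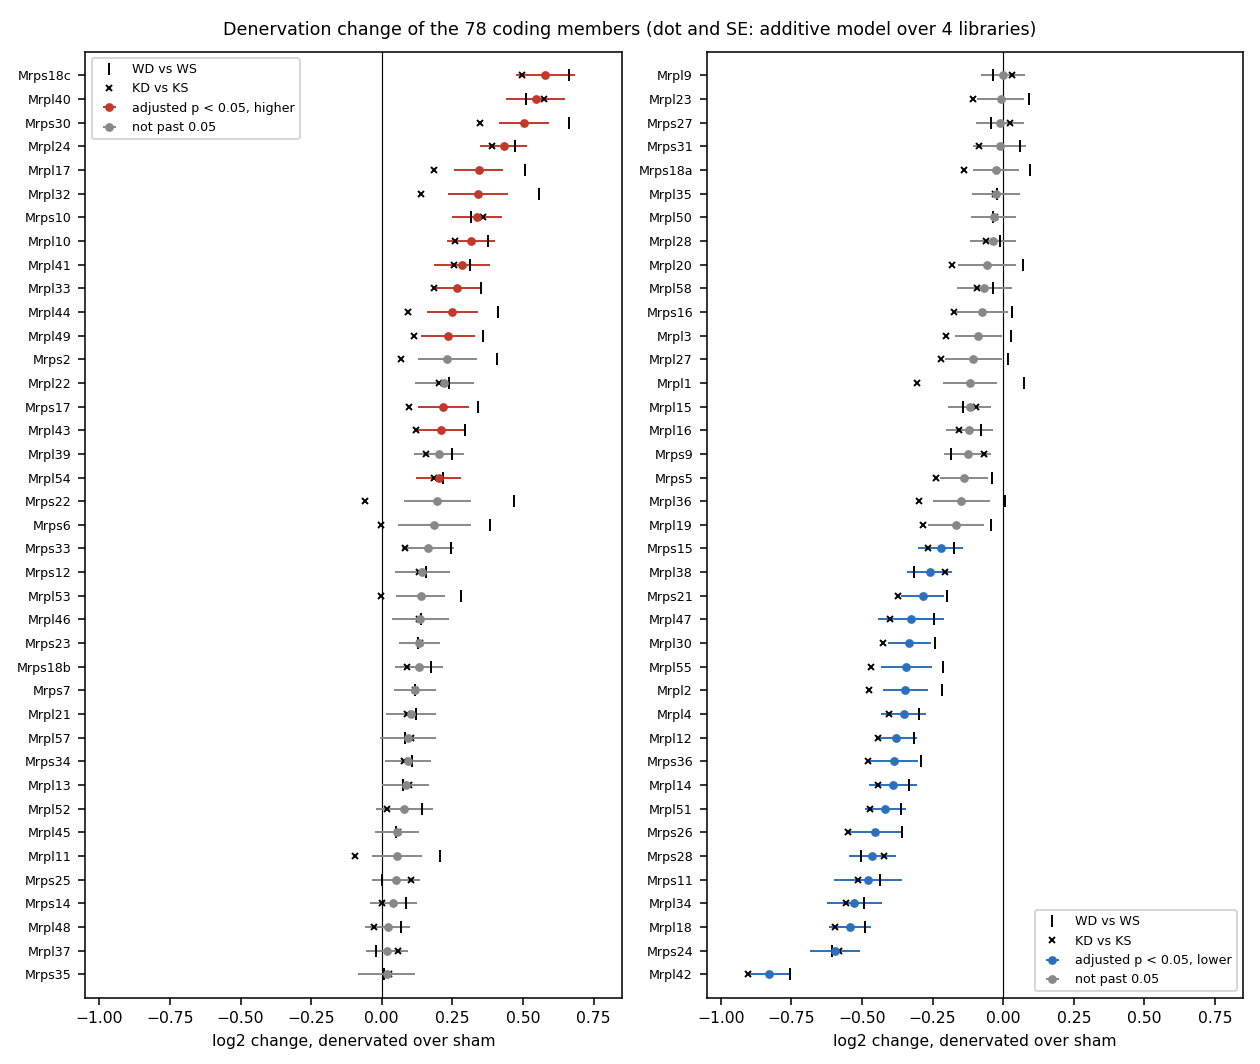
Log2 change after denervation of the 78 coding members, ranked in 2 columns, with the estimate of the additive model (dot), its SE (line), WD vs WS (tick) and KD vs KS (cross). Red and blue dots passed an adjusted p of 0.05 and grey dots did not. Mrps18c (0.58) and Mrpl42 (-0.83) mark the ends on the TMM scale, and under library totals only Mrpl42, Mrps24 and Mrpl18 stay called lower.

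Members of the large subunit were near both ends of the ranking, with Mrpl42 lowest and Mrpl40 next below Mrps18c at the top. Mrpl42 had 232 CPM in the WS library, 137 in WD, 260 in KS and 139 in KD. Both denervated libraries lay far below both sham libraries, and the fall was -0.75 in WT (95% counting interval -0.81 to -0.70) and -0.90 in Fgf21KO (-0.96 to -0.85). Mrpl18, the counterpart of bacterial L18, had 106, 75.7, 112 and 73.8 CPM in the same order and fell by 0.54 (SE 0.074, adjusted p = 3.91e-07), with no overlap between sham and denervated libraries. Mrpl34, the counterpart of bacterial L34, had 29.0, 20.6, 32.4 and 21.98 CPM and fell by 0.53 (SE 0.099, adjusted p = 4.68e-05). Its denervated libraries were again both below the sham ones, but under library totals its change of -0.21 was no longer called. Mrpl12, the homologue of the bacterial stalk protein L7/L12, had 138, 111, 142 and 105 CPM and fell by 0.38 (adjusted p = 6.51e-05), a change of -0.06 under library totals. The other Mrpl members that fell, with changes of -0.42 to -0.26, were Mrpl51, Mrpl14, Mrpl4, Mrpl2, Mrpl55, Mrpl30, Mrpl47 and Mrpl38.

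Among Mrpl members that rose, Mrpl40, found only in mitochondria, had 16.9 CPM in the WS library, 24.1 in WD, 18.3 in KS and 27.3 in KD. It rose by 0.54 (SE 0.105, adjusted p = 7.01e-05), and it was the one member at least 0.5 higher on the log2 scale in KD vs KS. Mrpl24, the counterpart of bacterial L24, had 35.9, 49.8, 37.5 and 49.1 CPM, nearly equal between genotypes in both conditions, and rose by 0.43 (adjusted p = 7.89e-05). Mrpl17, the counterpart of bacterial L17, had 40.2, 57.2, 48.5 and 55.1 CPM and rose by 0.34 (adjusted p = 0.0013). Mrpl32, which is matured in mitochondria by the m-AAA protease before it enters the ribosome, had 20.3, 29.9, 26.8 and 29.4 CPM and rose by 0.34 (adjusted p = 0.0077, or 0.096 by DESeq2's Wald test). For Mrpl17 and Mrpl32 the WS library was the low one, and the KS library lay between it and the denervated pair. Mrpl10, Mrpl41, Mrpl33, Mrpl44, Mrpl49, Mrpl43 and Mrpl54 rose as well, by 0.20 to 0.32.

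In the small subunit, Mrps24, the counterpart of bacterial S3, had 42.4 CPM in the WS library, 27.8 in WD, 44.4 in KS and 29.7 in KD. It fell by 0.59 (SE 0.088, adjusted p = 1.44e-06), by nearly the same amount in WT (-0.61) and Fgf21KO (-0.58). Mrps11, Mrps28, Mrps26, Mrps21 and Mrps15 fell by 0.22 to 0.48, of which Mrps21 and Mrps15, like Mrpl38, lay above 0 under library totals. Mrps36, which carries a ribosomal name but is known as a subunit tied to the 2-oxoglutarate dehydrogenase complex, had 47.1, 38.5, 51.9 and 37.3 CPM and fell by 0.39 (adjusted p = 0.00034). Mrps30, which despite its name sits in the large subunit, had 33.4, 53.0, 40.9 and 52.0 CPM and rose by 0.50 (SE 0.088, adjusted p = 2.00e-05). Mrps10 and Mrps17 rose by 0.34 and 0.22.

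The S18 family offered a comparison among paralogues that occupy different places in the ribosome. Mrps18c had 17.9 CPM in the WS library, 28.3 in WD, 19.7 in KS and 27.9 in KD. Both denervated libraries were above both sham ones. Mrps18b, a small-subunit protein, had 38.9, 43.9, 41.9 and 44.5 CPM, a change of 0.13 that was not called (adjusted p = 0.197). Mrps18a, which sits in the large subunit, had 53.2, 56.8, 62.8 and 57.0 CPM, so that KS was its highest library. Its change of -0.02 was not called (adjusted p = 0.825) and turned to 0.30 under library totals and 0.13 under totals without the mitochondrially encoded genes.

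**Figure D2:**
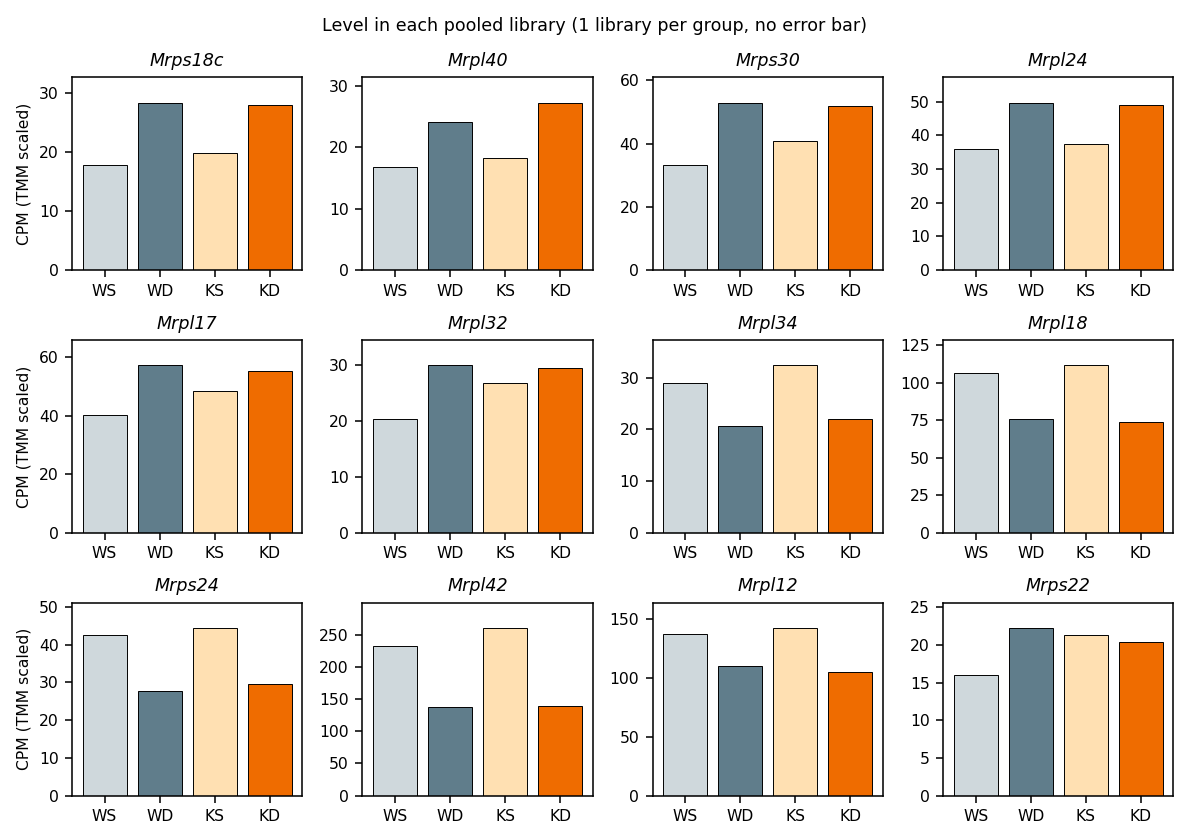
TMM-scaled CPM of 12 members in the 4 pooled libraries (WS and WD from WT, KS and KD from Fgf21KO, 1 library each and no error bar). Mrps18c, Mrpl40, Mrps30 and Mrpl24 stand higher and Mrpl34, Mrpl18, Mrps24, Mrpl42 and Mrpl12 lower in both denervated libraries, whereas Mrps22 is low in WS alone. On library totals, Mrpl42, Mrpl18 and Mrps24 stay called lower, and Mrpl34 and Mrpl12 do not.

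By gene name, 11 of 49 Mrpl members rose and 12 fell (median change -0.01), and 4 of 29 Mrps members rose and 7 fell (median 0.04), beside 26.6% and 27% of all genes. By place in the ribosome, 12 of 51 large-subunit members rose and 12 fell (median -0.01). Of 26 small-subunit members, 3 rose and 6 fell (median 0.05). Under library totals 33 Mrpl members were called higher and 2 lower (median 0.31) and 20 Mrps members higher and 1 lower (median 0.36), beside 46.7% and 12.8% of all genes. Of 45 members with a bacterial counterpart, 8 rose and 13 fell (median -0.07), and of 29 found only in mitochondria, 7 rose (Mrpl40, Mrps30, Mrpl41, Mrpl44, Mrpl49, Mrpl43 and Mrpl54) and 4 fell (Mrpl42, Mrps26, Mrpl51 and Mrpl38), with a median of 0.09. Under library totals 26 of the 45 were called higher and 2 lower (median 0.25), and 25 of the 29 higher and 1 lower (median 0.41). No test was made between these classes. Both denervated libraries lay above both sham libraries for 28 of 82 members (38.1% of all genes) and below them for 27 (36.7%), or for 61 (60.2%) and 14 (19.4%) under library totals. Of the 8 members with YY1 letters in the promoter, Mrpl42, Mrps24 and Mrps11 fell and none rose (median -0.09). Of the 61 with a window lacking these letters, 14 rose and 13 fell (median 0.05), where 27% of all genes fell. The letters of Mrps11 lie just outside the overlapping window of Mrpl46, a gene on the other strand. Mrpl46 (change 0.14, not called) therefore counts among the members lacking them. Under library totals 4 of those 8 were called higher and 2 lower (median 0.23), beside 46.7% and 12.8% of all genes. Of 26 members with ETS letters 4 rose and 5 fell, and of the 43 with a window lacking them 10 rose and 11 fell. Under library totals 20 of those 26 were called higher and 1 lower, beside 46.7% and 12.8% of all genes. Under totals without the mitochondrially encoded genes 14 were called higher and 4 lower, beside 36.6% and 19.7% of all genes. The pseudogenes were not called: Mrps36-ps2 had 35, 29, 52 and 32 counts in the 4 libraries (change -0.76, adjusted p = 0.068), and Mrpl48-ps had 14, 11, 15 and 11 (change -0.66, adjusted p = 0.275). Pseudogene reads can come from the parent gene. Across the 78 coding members, the change after denervation had a Spearman correlation of 0.075 with transcript length and -0.26 with mean count, given as a description over genes that share the same 4 libraries.

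The partners of the mitoribosome moved in different directions. The 13 mitochondrially encoded mRNAs, its only messages, all fell (median -0.81, ND2 -1.35 and ND4L -0.97). Its RNAs fell too: mt-Rnr1, the small-subunit rRNA, by 0.83 (SE 0.077, adjusted p = 2.51e-10) and mt-Rnr2, the large-subunit rRNA, by 1.17 (SE 0.079, adjusted p = 2.93e-13). Libraries were made from polyadenylated RNA, so levels of these rRNAs are those of captured molecules. Of 74 nuclear-encoded respiratory chain genes, 66 fell and none rose (median -0.35, Ndufs7 -0.91 and Cox7a1 -0.84), although under library totals 23 were called lower and 8 higher. Of 81 cytosolic ribosomal protein genes, 75 rose and none fell (median 0.70, Rpl3 2.43 and Rps27a 1.24). The coding members' median lay above those of the mitochondrially encoded and respiratory chain genes and below that of the cytosolic ribosomal proteins. A change of scaling shifts all genes alike, so the other scalings could not alter this order.

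**Figure D3:**
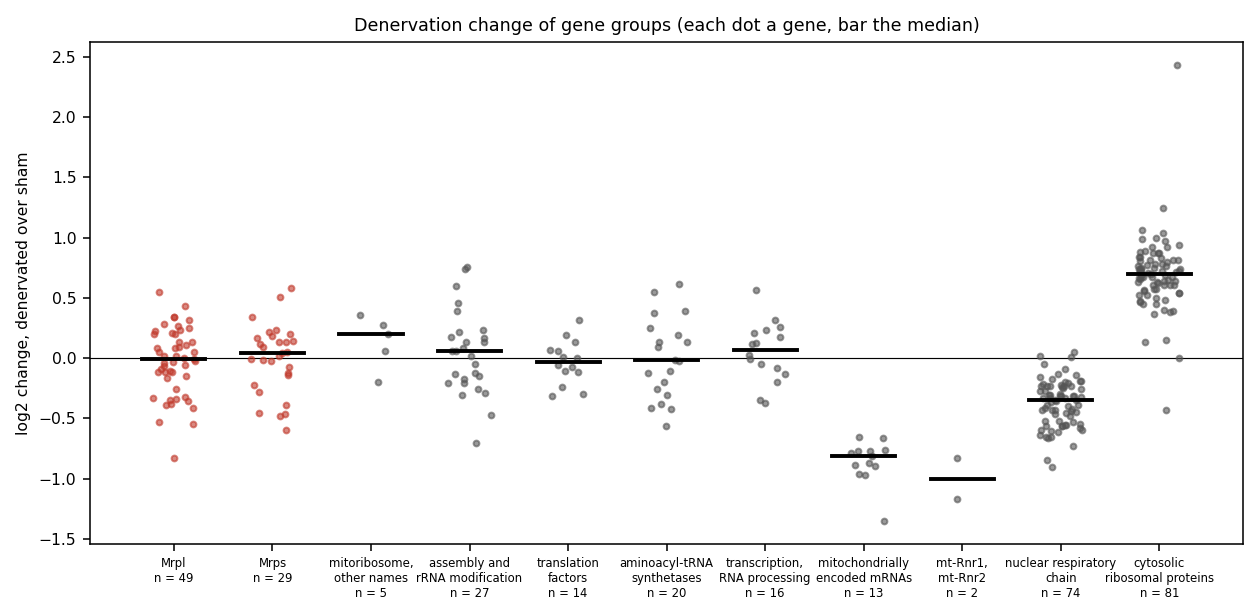
Log2 change after denervation (additive model, TMM scale) for each gene of 11 groups, with a bar at the median and the number of genes under each group. The Mrpl and Mrps genes (red) centre near 0, between the mitochondrially encoded mRNAs (median -0.81) and nuclear respiratory chain genes (-0.35) below and the cytosolic ribosomal proteins (0.70) above. Library totals raise all groups together and bring the respiratory chain median to -0.03.

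Ratios taken within a library do not depend on scaling and show the same order. For every 100 counts on the 13 mitochondrially encoded genes, the coding members together had 1.24 counts in the WS library, 2.05 in WD, 1.11 in KS and 1.91 in KD. Against the 2 mitochondrial rRNAs, they had 0.919, 1.75, 0.878 and 1.72 counts per rRNA count. Both ratios were higher in both denervated libraries. For every 100 counts on nuclear-encoded respiratory chain genes there were 10.2, 12.8, 10.6 and 12.9 coding member counts, and for every 100 on cytosolic ribosomal proteins 28.6, 16.6, 28.7 and 16.5. Coding Mrpl counts per coding Mrps count went from 2.14 (WS) and 2.18 (KS) to 1.99 (WD) and 2.00 (KD). Mrpl42 alone gave 5387 of the 84685 member counts in WS and 4301 of the 109049 in KD, over all 82 members.

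Among the other genes of mitochondrial translation, both directions occurred as they did among the members. Of 5 mitoribosomal proteins with other names, Aurkaip1 (0.36), Gadd45gip1 (0.28) and Ptcd3 (0.20) rose, Chchd1 fell (-0.20), and Dap3, a GTP-binding small-subunit protein, had a change of 0.06 that was not called. Of 27 assembly and rRNA modification genes, 5 rose and 2 fell. Mettl15 (0.75) and Tfb1m (0.74), methyltransferases of the small-subunit rRNA, rose, and Mettl17 (-0.71) and Rcc1l (-0.47), assembly factors, fell. Of 14 translation factors, Tsfm, an elongation factor, rose (0.32) and 3 fell, among them Gfm2 (-0.32), which helps to recycle ribosomes, and Taco1 (-0.30), an activator of COX1 translation. Of 20 genes for mitochondrial aminoacyl-tRNA formation, 5 rose (Nars2 0.61, Gatb 0.55) and 5 fell (Qrsl1 -0.56, Sars2 -0.43). Of 16 transcription and RNA processing genes, 4 rose and 3 fell. Elac2 (0.57) and Prorp (0.32), which cut tRNA ends from mitochondrial transcripts, rose, whereas Polrmt (-0.37), the mitochondrial RNA polymerase, and Polg (-0.35), the mitochondrial DNA polymerase, fell. Under library totals these 5 groups held 4, 14, 9, 11 and 10 genes called higher, in the order given, and 1 called lower, Mettl17.

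The comparison of denervation in each genotype asks whether loss of Fgf21 changes the response. In WD vs WS, 46 of 78 coding members lay above 0 (50.5% of all genes), or 65 under library totals, where the median of all genes was 0.29. In the same pair on the TMM scale, 5 of the 82 members were at least 0.5 higher (20.2% of all genes) and 5 at least 0.5 lower (20.9%) in log2 ratio. In KD vs KS, 35 of 78 lay above 0 (50.8%), or 61 under library totals, where the median of all genes was 0.36. In this pair on the TMM scale, 1 member was at least 0.5 higher (20.6%) and 7 at least 0.5 lower (19.9%). No member reached a log2 ratio of 1 in either direction in any of the 4 pairs (20.3% of all genes did). The direction was the same in both genotypes for 59 of 78 coding members, that is 75.6%, against 82.8% of all genes. For 19 it differed, but in none of these did both counting intervals leave out 0. With 1 library per group these ratios have no test.

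**Figure D4:**
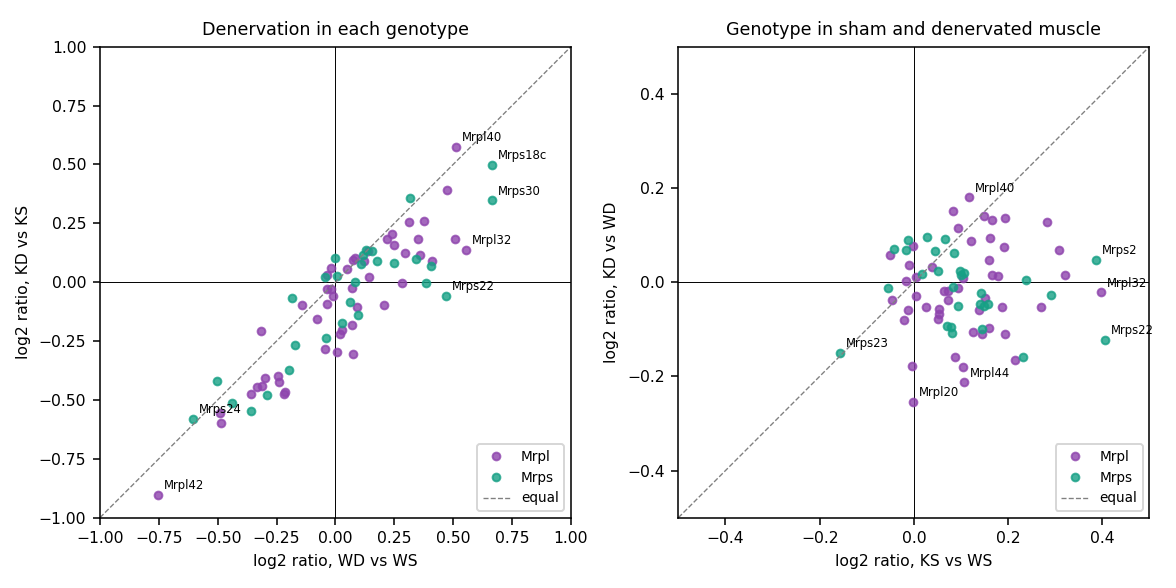
Log2 ratios (TMM scale) of the 78 coding members between pooled libraries: left, WD vs WS against KD vs KS, and right, KS vs WS against KD vs WD, with Mrpl in purple and Mrps in green and a dashed line of equality. On the left most members that stand higher in WT lie below the line (Mrps22, 0.47 and -0.06), and on the right most lie to the right of 0 (64 of 78, or 47 of 78 under library totals). The 2 ratios of a panel do not share a library, but the panels use the same 4 libraries.

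Most members had a lower log2 ratio after denervation in Fgf21KO than in WT, a difference between single libraries with no test. The difference (KD vs KS minus WD vs WS) was below 0 for 61 of 78 coding members (median -0.11, against -0.0048 over all genes). Its 95% counting interval lay wholly below 0 for 31 (15.6% of all genes) and wholly above 0 for none (13.6%). Members and all genes were not matched for count, which sets the width of these intervals. The feature was shared with other groups: 44 of 81 cytosolic ribosomal protein genes had intervals below 0 and 2 above (median -0.10). The numbers were 43 and 1 of 74 nuclear-encoded respiratory chain genes (median -0.07) and 12 and 0 of 13 mitochondrially encoded genes (median -0.17). Of 20 aminoacyl-tRNA genes, 4 lay below 0 and 3 above. Under library totals the coding members' median was -0.04, with 15 intervals below 0 (8.64% of all genes) and 5 above (21.4%), while the median of all genes became 0.07. Mrps22, a small-subunit protein found only in mitochondria, had the lowest difference, -0.53 (-0.77 to -0.29), with a ratio of 0.47 in WT and -0.06 in Fgf21KO. It had 16.1 CPM in the WS library, 22.2 in WD, 21.3 in KS and 20.4 in KD. Mrpl32 followed at -0.42 (0.56 in WT, 0.14 in Fgf21KO). Mrps6, the counterpart of bacterial S6, was at -0.39 (0.39 and -0.0042), with 11.9, 15.6, 14.0 and 14.0 CPM. In each of these 3 genes WS was the lowest library. The highest difference of a coding member was 0.11 (-0.05 to 0.27) for Mrps9, the counterpart of bacterial S9, and that of the pseudogenes Mrps36-ps1 (0.37, -0.20 to 0.94) and Mrpl23-ps1 (0.14, -0.43 to 0.71) rested on 75 to 119 counts per library.

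The same feature showed in the comparison of sham muscles. In KS vs WS, 64 of 78 coding members lay above 0 (49.7% of all genes), with a median of 0.10 over the members, and none was at least 0.5 higher (4.5%) or lower (5.96%). WS was the lowest of the 4 libraries for 37 of 78 coding members (27.4% of all genes). KS was the highest for 32 of the 78 (3079 of all 13084 genes). Other groups stood above 0 in KS vs WS too, among them 73 of 81 cytosolic ribosomal protein genes (median 0.09). So did 53 of 74 nuclear-encoded respiratory chain genes (median 0.07) and all 13 mitochondrially encoded genes (median 0.25), and 10 of 20 aminoacyl-tRNA genes. WS was the lowest library for 71 of these cytosolic genes, 2 of the respiratory chain genes and 0 of the mitochondrially encoded ones. KS was the highest library for 1, 52 and 13 of them, in that order. Under library totals the members' KS vs WS median was 0.02, with 47 of 78 coding members above 0. The median of all genes then fell to -0.08. The members stood 0.10 above all genes under both scalings, a gap that a change of scaling cannot alter. Mrps22 was the highest at 0.40 (0.22 to 0.59), followed by Mrpl32, also at 0.40 (0.23 to 0.56) and Mrps2, the counterpart of bacterial S2, at 0.39 (0.22 to 0.55). Mrps2 had 20.5, 27.2, 26.8 and 28.1 CPM in WS, WD, KS and KD, again low in WS alone. At the other end, Mrps23, a small-subunit protein found only in mitochondria, was at -0.16 (-0.24 to -0.07), and Mrps10 (-0.05) and Mrpl38 (-0.05) had intervals that include 0. WS enters both WD vs WS and KS vs WS, so a low value in that single library raises both ratios. KS enters both KS vs WS and KD vs KS, so a high value there raises the former and lowers the latter.

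In denervated muscle the genotypes were closer. In KD vs WD, 36 of 78 coding members lay above 0 (48.7% of all genes), with a median of -0.01 over the members (0.0032 under totals without the mitochondrially encoded genes). The lowest were Mrpl20, the counterpart of bacterial L20, at -0.25 (-0.40 to -0.11), Mrpl44, a large-subunit protein, at -0.21 (-0.32 to -0.10) and Mrpl53 at -0.18 (-0.28 to -0.08). Mrpl20 had 24.9 CPM in the WS library, 26.1 in WD, 24.8 in KS and 21.9 in KD, so that KD was its lowest library. Mrpl40 was the highest coding member at 0.18 (0.04 to 0.32). Mrps36-ps1, at 0.52 (0.12 to 0.92) and 86 counts in WD against 118 in KD, was the one member at least 0.5 higher (4.19% of all genes) and none was at least 0.5 lower (3.78%), while Mrpl23-ps1 was at 0.24 (-0.14 to 0.62).

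Over both surgeries, no member was called for genotype by edgeR's quasi-likelihood test (0.313% of all genes were higher and 0.359% lower in Fgf21KO), nor by DESeq2's Wald test. At an unadjusted p below 0.05 there was 1 member (7.93% of all genes), Mrps23, with 90.8 CPM in the WS library, 99.3 in WD, 81.4 in KS and 89.5 in KD. Each Fgf21KO library was below the WT library of the same surgery, by 0.15 in the model, and the unadjusted p was 0.046. Its adjusted p was 0.612, so the difference did not pass the correction over all genes.

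**Figure D5:**
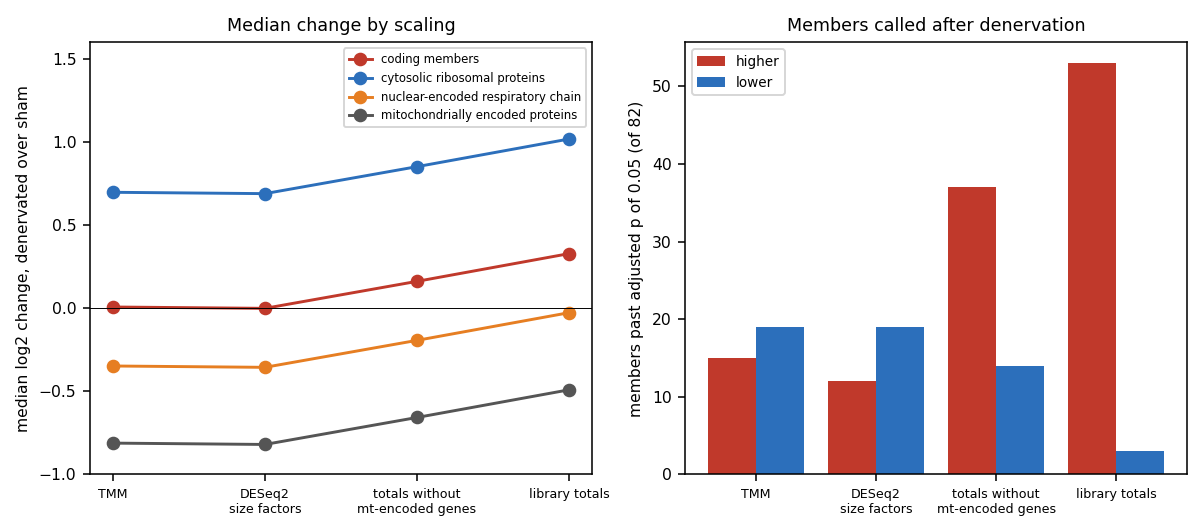
Left, median log2 change after denervation of 4 gene groups under 4 scalings, and right, the number of the 82 members called higher or lower under each. The coding members' median goes from 0.01 (TMM) to 0.33 (library totals) and the calls from 15 higher and 19 lower to 53 and 3. The members lie between the cytosolic ribosomal proteins and the respiratory chain genes, an order that a change of scaling cannot alter.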

How the data were processed

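The authors deposited read counts per gene for 4 TruSeq Stranded mRNA libraries, and a second table of log2 values. That deposited log2 table was named for FPKM, but its values were recovered from the counts as log2(count × f + 1), where f is constant within a library (100% of values within 0.01%), with no length correction. Per the submitters' processing notes the build was GRCm39, and FastQC was used. The aligner and counter are not given in the sources used here.

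A mean count filter of 10 left 13084 of 13825 genes, which were tested with R 4.3.3, edgeR 4.0.16 (TMM, quasi-likelihood test, additive model, common biological coefficient of variation 0.068, prior degrees of freedom 26.9, Benjamini-Hochberg adjustment) and DESeq2 1.42.0, which served as an alternative. Pairs of libraries were compared by log2 CPM with a prior count of 2, with 95% intervals that cover counting error only. Transcript lengths are from GENCODE M21 and promoters from RefSeq, matched by symbol, both on GRCm38, and figures were drawn with Python 3.11.15. The test was checked on simulated counts (13084 genes, 5 draws, a median of 4 false calls). Members with values were the 6 highest and 6 lowest after denervation, the 3 highest and 3 lowest in KS vs WS, KD vs WD, the genotype difference and level per length, the S18 family, Mrps30, Mrpl12, Mrps36 and the pseudogenes. Other members named are those that passed the test. Members, lists and this rule were chosen with earlier results of these data known. Alternatives were other scalings, filters, prior counts, tests and the deposited log2 values.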

Additional observations from a re-analysis of the deposited data

How the results depend on the processing

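Scaling moved the counts most. Under library totals 53 members were called higher (46.7% of all genes) and 3 lower (12.8%) after denervation. In both denervated libraries 61 were higher (60.2%) and 14 lower (19.4%) than in both sham ones. At least 0.5 higher and lower were 22 and 0 in WD vs WS and 12 and 1 in KD vs KS. The medians were 0.32 (WD vs WS), 0.33 (KD vs KS) and 0.019 (KS vs WS). Under totals without the 13 mitochondrially encoded genes, 37 were called higher (36.6% of all genes) and 14 lower (19.7%). In both denervated libraries 48 were higher (49.5%) and 20 lower (27.7%) than in both sham ones. At least 0.5 higher and lower were 12 and 3 in WD vs WS and 5 and 2 in KD vs KS. The medians were 0.18 (WD vs WS), 0.14 (KD vs KS) and 0.0032 (KD vs WD). The shares of all genes at least 0.5 higher or lower are not given here under these scalings. Mrps18a turned from -0.02 to 0.30 and 0.13 under these scalings, and Mrps36-ps1 from -0.24 to 0.085 under library totals. These shifts follow from the factor each scaling applies to a whole library. DESeq2's Wald test called 7 members higher, all among the 15, and the cause was not tested. The study's fold criterion left 0 called in either direction, and the exact test with that criterion left 0 in WD vs WS, KD vs KS and KD vs WD. A mean count of at least 50 gave 3 members lower and a median of 0.059 in WD vs WS and 2 higher in KD vs KS, after 2 pseudogenes dropped out and scaling was redone on the remaining genes. The deposited log2 values gave 3 higher, 3 lower and a median of 0.023 in WD vs WS, a median of -0.050 in KD vs KS and 0 higher in KD vs WD. DESeq2's size factors, no filter and a smaller prior count moved no count by over 1.5 times and no median beyond its counting interval. The comparison of scalings for non-overlapping libraries was chosen after seeing the data, as was the promoter share over genes tested. Leaving out a library was not run, because each group is 1 library and the model would have no residual degree of freedom. No paired analysis was possible because a group holds a single pooled library without a replicate number, so muscles of the same mouse could not be matched, and the additive model compares sham and denervated pools within a genotype.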
